A study of Mus musculus with 3 samples.

Results

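Astrocyte-like cells were picked out of single-cell RNA profiles of mouse neural progenitors by 10 marker genes. A cell was a barcode with at least 3000 unique molecular identifiers (UMIs, each counting 1 captured RNA molecule), at least 500 genes and at most 20% mitochondrially encoded UMIs. An astrocyte-like cell had at least 1 UMI of 3 or more of the 5 astrocyte genes Apoe, Aqp4, Gfap, Pla2g7 and Ndrg2, and UMIs of fewer than 2 of the 5 oligodendrocyte precursor genes Pdgfra, Lhfpl3, Pcdh15, Sox10 and Cntn1. The members were thus chosen by measured values of these 10 genes in the same cells. The rule took 1940 of 17920 cells. These were 352 of 5531 cells after bulk electroporation (BEP), 1355 of 6298 cells after localized electroporation (LEP) and 233 of 6091 cells of the control.

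Astrocytes are the glial cells that clear transmitters and potassium from around neurons, move water and ions, and supply cholesterol to neighbouring cells in lipoprotein particles built on apolipoprotein E. In the brain of a newborn mouse they arise from radial glia and share many genes with neural stem cells, among them Slc1a3, Fabp7, Vim and Hes5. Gfap, an intermediate filament protein, and Aqp4, the water channel of astrocyte end-feet, are used as their markers, and Gfap is also known for its rise in reactive astrocytes.

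The progenitors came from mice at postnatal day 1 and were grown as neurospheres with epidermal growth factor at 20 ng/mL. For each condition 50000 cells were plated and cultured for 16 h, and 10000 cells went into each droplet library, which reads transcripts at their 3' ends. BEP cells were pulsed in a Lonza 4D Nucleofector Y unit with program DS137, a device that pulses all cells of a culture at once. LEP cells were grown on localized electroporation devices and received 400 pulses of 20 V. Both were harvested 4 h after treatment, and the control is labelled with the same time. The labels name neither a cargo, nor whether control cells stood on a dish or on a device, nor the number of mice. The growth surface and the pulses therefore cannot be told apart in the LEP library. Each condition was 1 library, so differences between conditions have no replicate check and were not tested. Intervals are exact 95% intervals and cover counting error only.

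The cells held 77491732 UMIs in BEP, 76177026 in LEP and 61775756 in the control. Libraries shared 6 to 9 cell barcodes in pairs. Astrocyte-like cells were deeper in BEP than elsewhere. Their median was 16512 UMIs in BEP, 11596 in LEP and 10863 in the control, and 40.6% of them in BEP, 11.4% in LEP and 8.58% in the control held over 20000 UMIs. No doublet caller was used, so doublets remain among them. UMIs were summed over astrocyte-like cells of a library and scaled to CPM, the UMIs of a gene per 1000000 UMIs summed, from 7646243 UMIs in BEP, 17676431 in LEP and 2891676 in the control.

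The share of astrocyte-like cells was 6.36% in BEP (5.73% to 7.04%), 21.5% in LEP (20.5% to 22.6%) and 3.83% in the control (3.36% to 4.34%). The intervals of the 3 libraries did not overlap. A deep cell passes such a rule more easily, so each cell was also thinned at random to 3000 UMIs. The share was then 0.904% in BEP, 6.13% in LEP and 0.607% in the control. LEP was again highest, and the thinned intervals of BEP (0.672% to 1.19%) and the control (0.428% to 0.836%) overlapped. The genes of the rule themselves differ between the libraries, so these shares describe how often the rule was met and do not measure how many astrocytes there were.

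**Figure D1:**
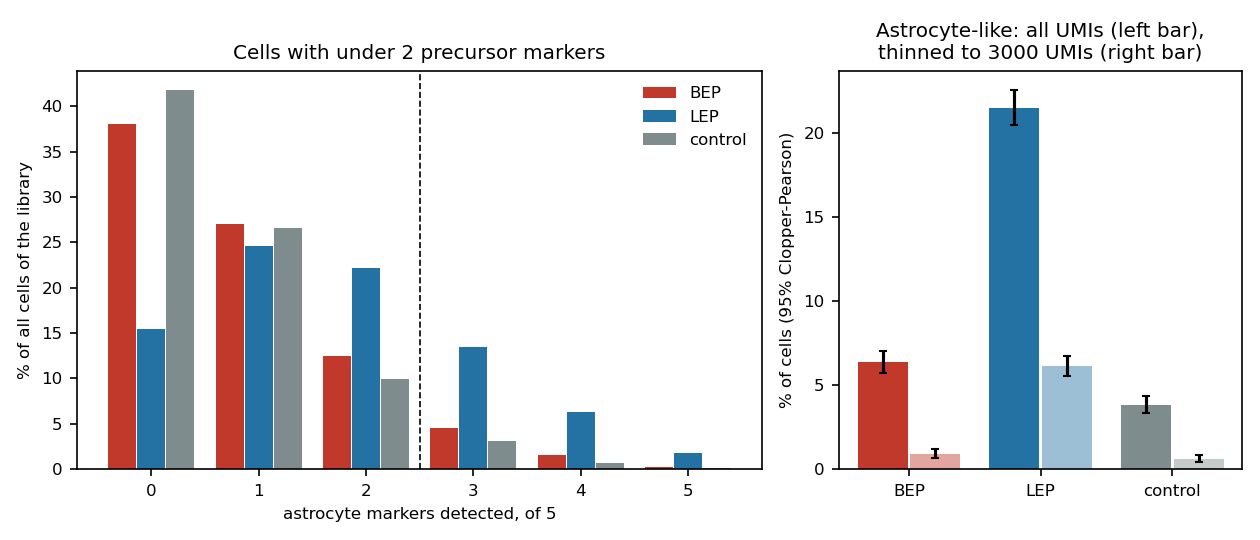
The left panel plots the percentage of all cells of each library against the number of astrocyte markers detected, for cells with under 2 precursor markers, with the rule at the dashed line; the right panel plots the share of astrocyte-like cells with 95% Clopper-Pearson intervals, on all UMIs and after thinning. LEP had 21.5% of its cells right of the line, against 6.36% in BEP and 3.83% in the control.

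Most members met the rule at its edge. Exactly 3 markers were found in 250 BEP, 847 LEP and 186 control cells, 4 markers in 88 BEP, 399 LEP and 39 control cells, and all 5 in 14 BEP, 109 LEP and 8 control cells. Just outside stood 690 BEP, 1393 LEP and 602 control cells with 2 markers. The most common combination was Apoe with Pla2g7 and Ndrg2, in 27.8% of BEP, 38.6% of LEP and 33.0% of control members.

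The 5 marker genes chose the cells, so their levels are a description. Apoe stood at 694 CPM in BEP, 1451 CPM in LEP and 898 CPM in the control members. Apoe was highest in LEP and lowest in BEP. Aqp4 stood at 73.5 CPM in BEP, 68.1 CPM in LEP and 96.1 CPM in the control members. Pla2g7, which encodes a secreted phospholipase that hydrolyses platelet-activating factor, stood at 73.4 CPM in BEP, 226 CPM in LEP and 117 CPM in the control members. Ndrg2 stood at 71.7 CPM in BEP, 138 CPM in LEP and 102 CPM in the control members. LEP members were highest in every one of the 5 except Aqp4, where they were lowest. Among members of at most 20000 UMIs, Apoe stood at 1248 CPM in BEP, 1634 CPM in LEP and 1015 CPM in the control, so that BEP then lay above the control. The genes lie on chromosome 7 (Apoe, 19696109 to 19699188), chromosome 17 (Pla2g7, 43568098 to 43612201) and chromosome 14 (Ndrg2, 51905271 to 51914158) of GRCm38.

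Gfap was the marker that set LEP apart most. It stood at 10.1 CPM in BEP (7.95 to 12.6), 57.1 CPM in LEP (53.6 to 60.7) and 10.4 CPM in the control members (7.0 to 14.8). A Gfap UMI was seen in 53 of 352 BEP, 376 of 1355 LEP and 23 of 233 control members, or 15.1% in BEP, 27.7% in LEP and 9.87% in the control. After thinning the share was 4.55% in BEP, 11.7% in LEP and 3.86% in the control. Cells with 2 or more precursor markers and under 3 astrocyte markers, called precursor-marked here, held a thinned Gfap UMI in 0.120% of BEP, 0.325% of LEP and 0.185% of control cells, at median depths of 7903 UMIs in BEP, 8247 in LEP and 6163 in the control. Gfap is among the genes that define this class, so its low share there is partly fixed by the rule. Gfap lies on chromosome 11, from 102887336 to 102900912 on the minus strand of GRCm38.

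The other astrocyte genes were graded along the number of markers and gave no sharp edge at the rule. Summed over 25 astrocyte genes that the rule did not use, cells with 3 markers held 5753 CPM in BEP, 7081 CPM in LEP and 6804 CPM in the control. Cells with 2 markers, just outside, held 4887 CPM in BEP, 5435 CPM in LEP and 5155 CPM in the control. Cst3, the secreted protease inhibitor cystatin C, climbed in LEP at every step, with 651 CPM at 0 markers, 2063 CPM at 3 and 5044 CPM at 5. Over the same 3 steps Cst3 had 405, 1283 and 2336 CPM in BEP and 381, 1570 and 3270 CPM in the control, and in BEP its highest value was at 4 markers. The sums at 5 markers rest on 14 cells in BEP and 8 in the control.

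Hes5 and Basp1 moved in opposite directions along the same axis. Hes5, a Notch-induced repressor that keeps neural stem cells undifferentiated, stood at 107 CPM with 0 markers and 627 CPM with 5 in LEP. In BEP Hes5 stood at 23.9 and 83.3 CPM and in the control at 73.7 and 179 CPM. Basp1, a membrane protein of growing neurites, stood at 731 CPM with 0 markers and 273 CPM with 5 in LEP, at 615 and 244 CPM in BEP, and at 564 and 120 CPM in the control. Olig2, a transcription factor of the oligodendrocyte lineage, stood at 291 and 135 CPM at those ends in LEP, at 270 and 185 CPM in BEP, and at 178 and 170 CPM in the control. Basp1 fell at each step in all 3 libraries, while Olig2 had no steady course in the control.

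**Figure D2:**
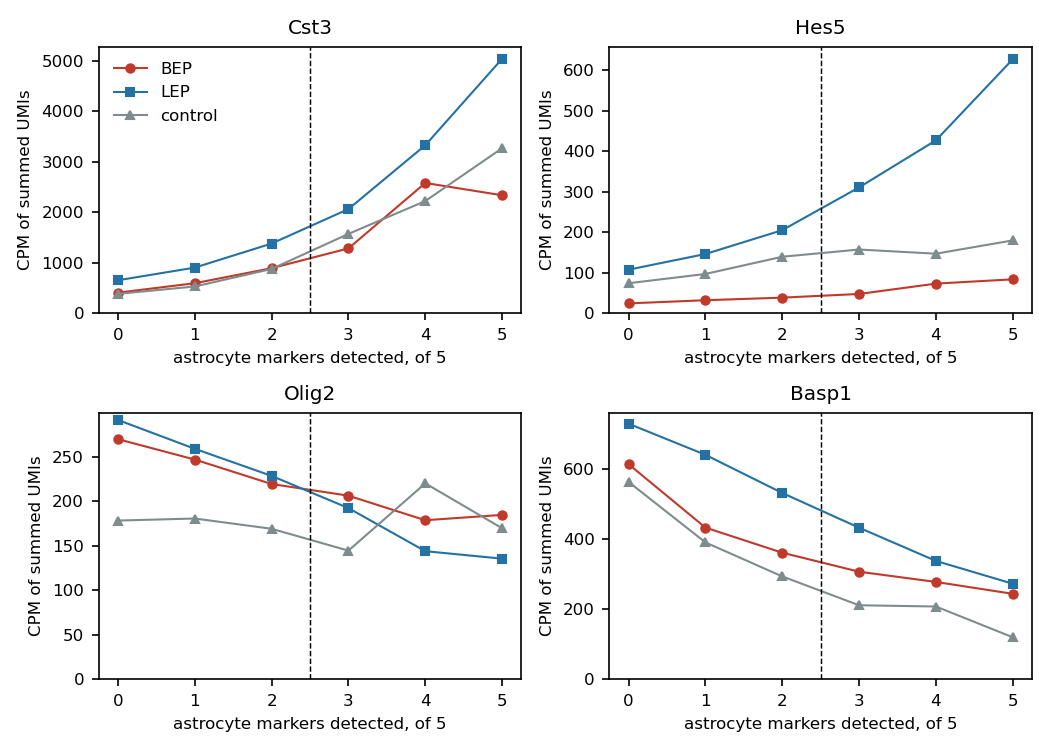
Each panel plots CPM of summed UMIs of 1 gene (vertical) against the number of astrocyte markers detected (horizontal) in cells with under 2 precursor markers, with 1 line per library and the rule at the dashed line. Basp1 falls at each step in every library, and the LEP line of Hes5 reaches 627 CPM at 5 markers.

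Set against the other cells of their own library, astrocyte-like cells differed in few genes by 2-fold. Among 1400 genes of at least 100 CPM in every library, leaving out the 10 of the rule, 5 were at least 2-fold higher in all 3 (0.357%) and 0 at least 2-fold lower (0.0%). Within single libraries 10 of 1576 genes differed by 2-fold in BEP (0.635%), 14 of 1589 in LEP (0.881%) and 28 of 1591 in the control (1.76%). The cells were picked on RNA of the same libraries, so these ratios describe them and were not tested. Among them were Cst3, Tagln, Gstm1 and Aldoc. Ratios are log2 of CPM with 1 CPM added to each side. Cst3 had 1628 CPM in BEP members and 574 CPM in other BEP cells, 2664 and 953 CPM in LEP, and 1740 and 487 CPM in the control. Its ratio was 1.50 in BEP, 1.48 in LEP and 1.83 in the control. Aldoc, the brain aldolase, had ratios of 1.04 in BEP, 1.33 in LEP and 1.39 in the control. Gstm1, a glutathione transferase with close paralogs that can share reads, had ratios of 1.23 in BEP, 1.30 in LEP and 1.51 in the control. Sparcl1, an astrocyte-secreted matrix protein that promotes synapse formation and stayed under 100 CPM in BEP, had ratios of 1.25 in BEP, 1.46 in LEP and 2.00 in the control.

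Most measured genes of the astrocyte list outside the rule were higher in members than in other cells. This describes the cells and does not check their label, since the lists were chosen with earlier results of these data known. Of the 20 genes of that list with at least 20 CPM in every library, 18 were above 0 in all 3, against 31.4% of all 5378 such genes. Their median ratio was 0.86 in BEP, 0.98 in LEP and 1.05 in the control, against -0.01, -0.04 and 0.01 over all genes. The 2 exceptions were Id3, at -0.13 in the control, and Fjx1, at -0.11 in BEP. All 12 measured genes of transmitter, ion and water transport were above 0 in each library. Slc1a2, the main glutamate transporter of astrocytes, had ratios of 0.99 in BEP, 1.14 in LEP and 1.22 in the control, and Slc4a4, a sodium bicarbonate cotransporter, had 1.06 in BEP, 0.98 in LEP and 1.33 in the control. All 7 measured genes of lipid carriage were above 0 in each library too, Apoe not being counted. A pair of listed astrocyte genes that were not among the 20 were at or near 0. S100b had 3.14 CPM in BEP, 4.19 CPM in LEP and 4.50 CPM in the control members, below the other cells of each library, and Gjb6 was at 0 in BEP and control members and at 0.06 CPM in LEP.

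Stem cell genes stayed high in astrocyte-like cells. Slc1a3, a glutamate transporter shared by radial glia and astrocytes, stood at 522 CPM in members and 391 CPM in other cells of BEP, at 504 and 328 CPM in LEP, and at 593 and 360 CPM in the control. Sox2, a transcription factor of neural stem cells, stood at 377 and 363 CPM in BEP, 381 and 358 CPM in LEP, and 268 and 304 CPM in the control, again members first. Fabp7, the brain fatty acid binding protein of radial glia, stood at 5587 and 4187 CPM in BEP, 9305 and 5242 CPM in LEP, and 5558 and 3676 CPM in the control. Of 16 measured stem or progenitor markers, 9 were above 0 in all 3 libraries and 2 below.

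**Figure D3:**
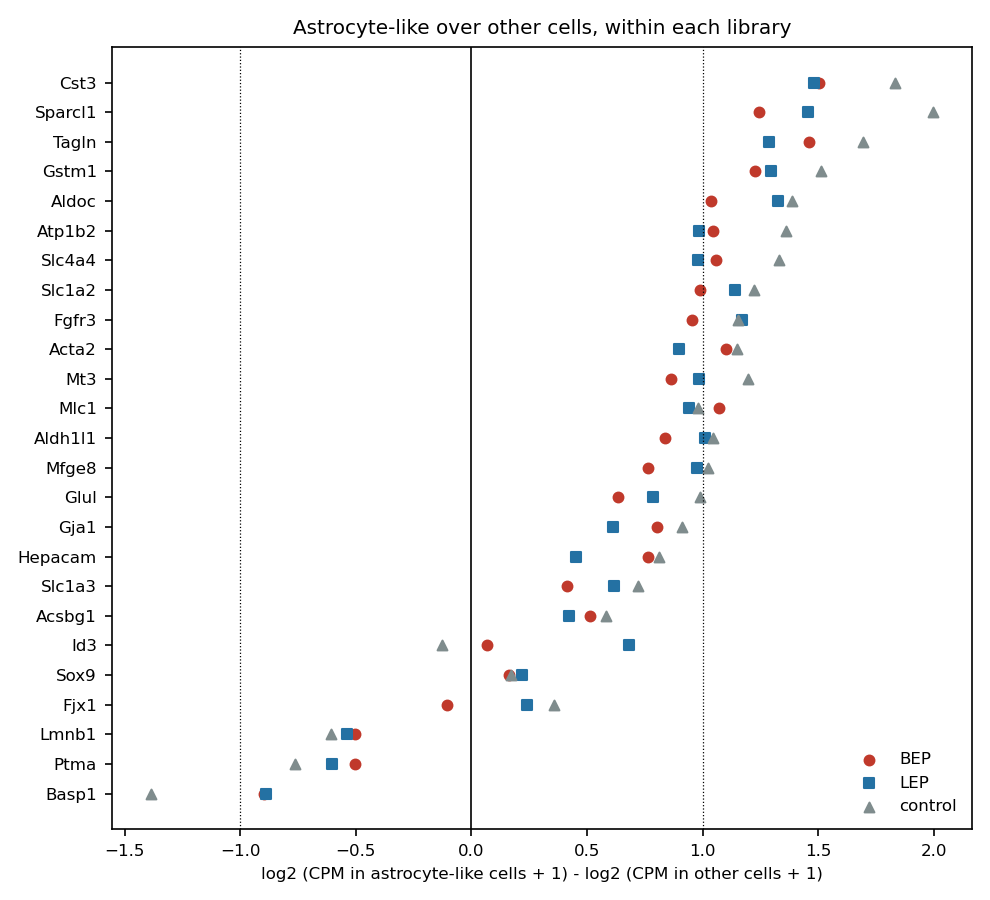
Each row is a gene and each point the log2 ratio of astrocyte-like over other cells (horizontal, pseudocount of 1 CPM) in 1 library, for astrocyte genes outside the rule with at least 20 CPM in every library and for Tagln, Acta2, Gstm1, Lmnb1, Ptma and Basp1. Cst3 lies at 1.50, 1.48 and 1.83 and Basp1 at -0.90, -0.89 and -1.39 in BEP, LEP and the control.

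Genes of division were lower in astrocyte-like cells by small amounts. Of 18 mitosis genes, 17 were below 0 in all 3 libraries, with medians of -0.13 in BEP, -0.23 in LEP and -0.32 in the control, and 11 of 14 measured S phase genes were below 0 as well. Among all 5378 genes 37.6% were below 0 in all 3. Cells with a UMI of 3 or more mitosis genes after thinning made up 49.1% of BEP, 31.9% of LEP and 36.1% of control members. Cells with under 3 astrocyte and under 2 precursor markers are called unclassed here and include those just outside the rule. Among unclassed cells the share was 55.2% in BEP, 45.9% in LEP and 50.6% in the control. In precursor-marked cells it was 48.4% in BEP, 29.1% in LEP and 41.6% in the control. The unclassed cells were shallower than members, with medians of 11793 UMIs in BEP, 10984 in LEP and 9981 in the control. Among members of 10000 to 20000 UMIs the dividing share was 39.6% in BEP, 35.9% in LEP and 42.1% in the control. The part of depth was not tested. All 10 measured hosts of small nucleolar RNAs were below 0 in each library too. Lmnb1, a B-type lamin that is lost in senescent cells, had ratios of -0.50 in BEP, -0.54 in LEP and -0.61 in the control, and Ptma, prothymosin alpha, had -0.50 in BEP, -0.60 in LEP and -0.76 in the control.

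Markers of microglia, blood and vessel lining were near 0 in members, while genes of the oligodendrocyte lineage, neuronal genes and a pair of smooth muscle genes were detected. The summed level of 10 microglia or macrophage genes was 0.00 CPM in BEP, 0.23 CPM in LEP and 0.35 CPM in the control members, and that of 5 erythroid genes was 0.00 CPM in BEP, 0.06 CPM in LEP and 0.00 CPM in the control. The 8 endothelial genes summed to 5.62, 6.45 and 11.8 CPM, the 8 ependymal genes to 20.1, 12.05 and 14.2 CPM, and the 13 neuronal genes to 201, 163 and 221 CPM in BEP, LEP and control members. The 13 oligodendrocyte precursor genes outside the rule summed to 722 CPM in BEP, 802 CPM in LEP and 743 CPM in the control members. The 12 oligodendrocyte genes summed to 102 CPM in BEP, 123 CPM in LEP and 95.1 CPM in the control. The 10 mural or fibroblast genes summed to 824 CPM in BEP, 295 CPM in LEP and 805 CPM in the control, and nearly all of it was Acta2 and Tagln, which encode smooth muscle actin and transgelin. Pdgfrb, the defining pericyte receptor, was at 0 in BEP and control members and at 0.17 CPM in LEP. Acta2 had 593 CPM in members and 276 CPM in other cells of BEP, 178 and 94.8 CPM in LEP, and 524 and 236 CPM in the control. A thinned Acta2 UMI was found in 58.8% of BEP, 25.98% of LEP and 47.6% of control members, against 8.38% of BEP, 3.03% of LEP and 6.46% of control precursor-marked cells. Acta2 was not particular to members. Cells with 2 astrocyte markers, just outside the rule, held 417 CPM in BEP, 129 CPM in LEP and 364 CPM in the control.

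In BEP members the genes of the interferon response stood far above control members. Of 1599 genes of at least 100 CPM in either, 29 differed by at least 2-fold (1.81%), with 12 higher (0.75%) and 17 lower (1.06%) in BEP. In other cells 18 of 1572 genes did (1.15%). Cxcl10, a chemokine that draws T cells, stood at 771 CPM in BEP, 5.94 CPM in LEP and 1.04 CPM in control members. The control value rests on 3 UMIs, and the counting interval of the BEP over control ratio ran from 7.99 to 11.82 on the log2 scale. Isg15, a ubiquitin-like protein of the antiviral response, stood at 315 CPM in BEP, 2.55 CPM in LEP and 0.69 CPM in control members, with an interval of 6.98 to 11.88. Rsad2, which encodes the antiviral protein viperin, stood at 190 CPM in BEP, 0.23 CPM in LEP and 0.35 CPM in control members. Ifit1, which binds foreign RNA, stood at 139 CPM in BEP, 0.23 CPM in LEP and 0.35 CPM in control members. Among members of the 3 libraries, those of LEP and the control held at most 5.94 CPM of any of these 4 transcripts.

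All 11 measured genes of the 23 on the interferon list were at least 2-fold higher in BEP than in control members, where 1.17% of 5997 genes of at least 20 CPM were. Each of the 11 met the minimum through BEP, so the count had to come out high and supports nothing by itself. In the other cells the same 4 genes had ratios of 6.90 (Cxcl10), 6.19 (Isg15), 5.87 (Rsad2) and 6.02 (Ifit1), against 8.57, 7.55, 7.15 and 6.70 in members. Gbp2, a guanylate-binding protein also counted among reactive astrocyte genes, stood at 37.8 CPM in BEP, 8.03 CPM in LEP and 1.04 CPM in control members.

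The promoters of these 4 genes and of Hes5 are shown because they carry the letters that interferon-activated and Notch-activated factors are known to bind. They are the 250 bases before the start of each gene in RefSeq on GRCm38.p6, and the capitals mark GAAA, any 2 bases and GAAA (the core of the interferon-stimulated response element) or its reverse complement in the first 4, and GTGGGAA (the core bound by RBPJ, the DNA-binding partner of Notch) or its reverse complement in Hes5. 
Isg15 (chr4:156200819-156201068, minus strand): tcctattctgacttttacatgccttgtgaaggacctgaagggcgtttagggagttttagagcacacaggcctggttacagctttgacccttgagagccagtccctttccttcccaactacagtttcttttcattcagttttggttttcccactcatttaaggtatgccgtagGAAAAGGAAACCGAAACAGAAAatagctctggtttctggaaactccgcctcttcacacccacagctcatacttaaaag
Cxcl10 (chr5:92348890-92349139, minus strand): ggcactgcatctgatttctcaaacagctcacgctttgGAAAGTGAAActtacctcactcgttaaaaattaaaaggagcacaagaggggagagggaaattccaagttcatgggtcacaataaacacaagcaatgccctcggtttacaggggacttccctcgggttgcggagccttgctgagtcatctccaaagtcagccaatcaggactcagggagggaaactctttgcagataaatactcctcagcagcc
Ifit1 (chr19:34640639-34640888, plus strand): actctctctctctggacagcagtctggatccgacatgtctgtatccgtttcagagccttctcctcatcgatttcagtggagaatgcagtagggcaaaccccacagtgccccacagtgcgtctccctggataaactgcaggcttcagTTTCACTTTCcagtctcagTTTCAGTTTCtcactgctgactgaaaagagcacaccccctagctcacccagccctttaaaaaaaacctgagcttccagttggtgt
Rsad2 (chr12:26456453-26456702, minus strand): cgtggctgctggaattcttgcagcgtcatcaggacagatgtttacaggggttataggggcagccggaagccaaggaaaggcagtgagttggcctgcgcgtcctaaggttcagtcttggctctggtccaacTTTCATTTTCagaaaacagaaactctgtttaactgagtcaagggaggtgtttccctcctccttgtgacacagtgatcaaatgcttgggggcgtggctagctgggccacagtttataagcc
Hes5 (chr4:154960673-154960922, plus strand): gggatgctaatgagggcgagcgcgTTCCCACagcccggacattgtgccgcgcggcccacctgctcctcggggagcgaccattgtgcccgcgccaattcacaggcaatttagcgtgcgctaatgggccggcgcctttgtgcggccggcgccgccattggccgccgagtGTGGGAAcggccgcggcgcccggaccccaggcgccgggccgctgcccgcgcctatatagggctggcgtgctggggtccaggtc

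Isg15 held 3 overlapping copies of the interferon letters, between 78 and 57 bases before its start, Ifit1 held 2, and Cxcl10 and Rsad2 held 1 each. Those letters occur on either strand in 978 of 32851 promoters of the same length, or 2.98%. Of the interferon list, 16 genes had a promoter in the table and 7 held the letters. The RBPJ letters occur in 1779 of the promoters, or 5.42%, and in 3 of 14 listed Notch and Id genes, Hes5, Hey2 and Lfng. A match describes the letters and no binding.

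The interferon genes were unevenly spread over BEP members and moved with depth. A UMI of Cxcl10, Isg15, Rsad2 or Ifit1 was found after thinning in 47.4% of BEP members (42.1% to 52.8%) and in 32.7% of the other BEP cells. It was found in 1.40% of LEP and 0.858% of control members. In precursor-marked BEP cells it was found in 17.6%. Among BEP cells of 6000 to 20000 UMIs the share was 34.8% of members (28.3% to 41.7%) and 30.4% of other cells, and the 4 genes summed to 584 CPM in members and 741 CPM in other cells. Among those over 20000 UMIs it was 66.4% of members (58.1% to 74.1%) and 59.0% of other cells, with 1864 CPM in members and 1550 CPM in other cells. The summed level was thus lower in members in the shallower band and higher in the deeper one. The tenth of BEP members with most Cxcl10 held 71.0% of its UMIs, and a single cell held 10.6%.

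**Figure D4:**
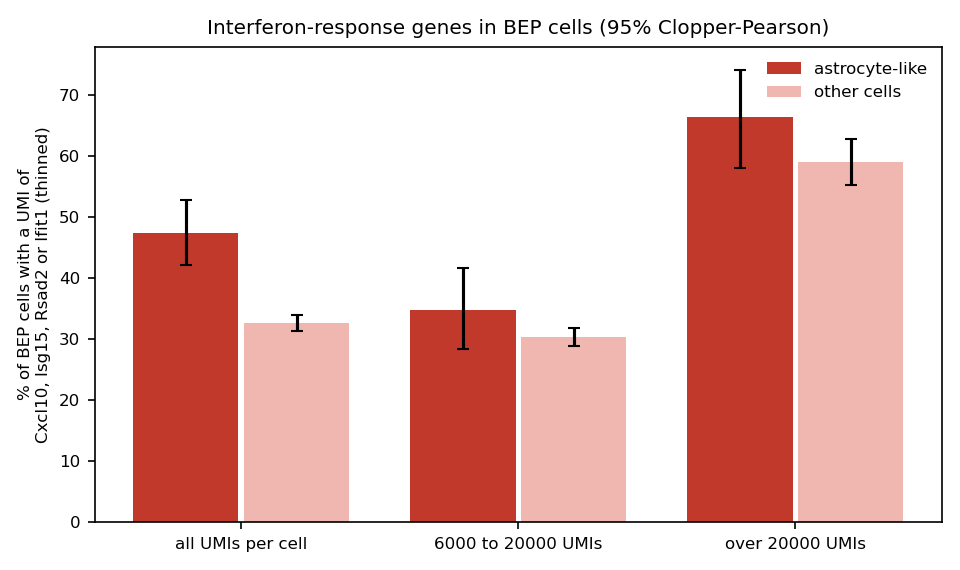
Bars give the percentage of BEP cells with at least 1 UMI of Cxcl10, Isg15, Rsad2 or Ifit1 after thinning each cell to 3000 UMIs, for astrocyte-like and other cells, over all cells and in a pair of depth bands, with 95% Clopper-Pearson intervals. Both kinds of cell hold these genes more often over 20000 UMIs, at 66.4% of astrocyte-like and 59.0% of other cells.

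Of the other genes that were 2-fold higher in BEP members, some lost most of their ratio without the deep cells and some lost little. H1f0, a linker histone of resting cells, stood at 180 CPM in BEP and 59.5 CPM in control members, and Gadd45g, a stress-induced growth arrest gene, at 197 CPM in BEP and 73.3 CPM in control members. With members of at most 20000 UMIs, 209 in BEP and 213 in the control, H1f0 stood at 82.5 CPM in BEP and 58.9 CPM in control members and Gadd45g at 70.8 CPM in BEP and 65.6 CPM in control members. Lmna, the A-type lamin, had a ratio of 1.41 over all members and 0.74 at this depth. Anxa2, an annexin that takes part in membrane repair, had 1.27 and 0.96, Six3, a homeobox factor of the forebrain, had 1.14 and 0.93, H2afx had 1.08 and 0.92, H1fx had 1.28 and 0.52, and the p53 target Phlda3 had 1.03 and 0.50. Under this limit 2 genes passed 2-fold upwards and 18 downwards, so 10.0% of the differing genes were higher, against 41.4% over all members. Isg15, Rsad2 and Ifit1 left the count because they fell under 100 CPM, at 97.1, 60.3 and 85.5 CPM in BEP members, while their ratios were still 6.11, 5.44 and 6.43.

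Cholesterol synthesis was lower in BEP members. Msmo1, a sterol demethylase of the pathway, stood at 141 CPM in BEP (132 to 149), 227 CPM in LEP (220 to 235) and 403 CPM in control members (380 to 427). The order BEP, LEP, control held without overlap of the counting intervals. Insig1, which holds the sterol sensor in the endoplasmic reticulum, stood at 37.8 CPM in BEP, 67.0 CPM in LEP and 162 CPM in control members. Of 20 genes of the pathway, 9 were at least 2-fold lower in BEP than in control members and 19 were below 0, where 1.0% of 5997 genes were 2-fold lower and 57.4% were above 0. A gene under 20 CPM in BEP can enter only through the control, so these counts may be partly fixed by the minimum. The median ratio of the 20 was -0.92 in members and that of the 19 measured in other cells was -0.65. The ratios of Insig1, Msmo1 and Cyp51 were -2.07, -1.51 and -1.29 in members and -1.24, -1.36 and -0.92 in other cells. With members of at most 20000 UMIs the median was -0.66 and 6 genes were 2-fold lower. Insig1 lies on chromosome 5, from 28071363 to 28078662 on the plus strand of GRCm38.

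Stress response genes of the Atf4 pathway were lower in BEP members as well. Ddit3, a transcription factor that promotes cell death under prolonged stress, stood at 51.8 CPM in BEP, 21.6 CPM in LEP and 279 CPM in control members. Atf3, a stress-induced repressor, stood at 18.3 CPM in BEP, 7.58 CPM in LEP and 128 CPM in control members. Control members were the highest for both genes and LEP members the lowest. Of 21 measured genes of the integrated stress response, 5 were at least 2-fold lower in BEP members and 0 higher, with a median of -0.55. With members of at most 20000 UMIs 11 were lower and the median was -1.01. Listed genes under 20 CPM in BEP members met the minimum through the control and could only come out lower. The ratio of Gdf15, a secreted stress cytokine, was -1.65 over all members and -3.20 under that limit, and it was -2.04 in other cells. Control members over 20000 UMIs numbered 20, so the deep end of the control is thin.

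Hes5 and Id2 of the Notch and Id families were lower in BEP members. Hes5 stood at 54.7 CPM in BEP (49.6 to 60.2), 369 CPM in LEP (360 to 378) and 156 CPM in control members (142 to 171). Id2, which keeps basic helix-loop-helix factors from binding DNA, stood at 44.9 CPM in BEP, 237 CPM in LEP and 155 CPM in control members. With members of at most 20000 UMIs the Hes5 ratio of BEP over control was -0.90 and that of Id2 was -1.27, against -1.50 and -1.76 over all members. In other cells Hes5 had -1.63 and Id2 -1.62. Of 8 measured genes of this list, these 2 were 2-fold lower and 3 were above 0, so the list as a whole had no common direction.

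Astrocyte genes outside the rule changed little between BEP and control members. Of 21 measured, 0 differed by 2-fold, 16 were below 0 and the median was -0.18, against 0.05 over all genes. Among all 5997 genes of at least 20 CPM 57.4% were above 0. Summed over the 25 listed genes, BEP members held 6453 CPM and control members 7286 CPM. BEP was higher within each depth band, at 11436 against 10330 CPM under 10000 UMIs and 8437 against 6867 CPM at 10000 to 20000 UMIs. Over 20000 UMIs the sums were 5163 and 4695 CPM. The part of depth was not tested. Of 13 transport genes 12 were below 0, with a median of -0.26, but with members of at most 20000 UMIs 7 were above 0 and the median was 0.04. Slc4a4 was the lowest of them, with 161 CPM in BEP and 297 CPM in control members. All 5 measured metallothionein and zinc genes were below 0, among them Mt1 with 3262 CPM in BEP and 4231 CPM in control members. With members of at most 20000 UMIs Mt1, Mt2 and Slc39a6 were still below 0, at -0.37, -0.36 and -0.27. Mt3 and Slc39a10 then had ratios of 0.13 and 0.01. Of 18 mitosis genes 17 were above 0, against 57.4% of all genes, with a median of 0.41 in members and 0.20 in other cells. Within depth bands their sums had no common direction. In BEP and control members they were 618 and 643 CPM under 10000 UMIs, and 2386 and 2266 CPM at 10000 to 20000 UMIs. Over 20000 UMIs they were 3062 and 3413 CPM. The median of 15 measured p53 targets was 0.29, with Trp53inp1, which promotes cell death and autophagy, at 64.5 CPM in BEP and 28.4 CPM in control members.

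In LEP members the stress response genes were the most reduced. Of 1623 genes of at least 100 CPM in either, 33 differed by at least 2-fold from control members (2.03%), with 13 higher (0.801%) and 20 lower (1.23%). In other cells 22 of 1584 genes did (1.39%). Ddit3 and Atf3 had ratios of -3.63 and -3.91, on the levels given above. Mthfd2, a mitochondrial enzyme of folate metabolism, stood at 111 CPM in BEP, 33.1 CPM in LEP and 198 CPM in control members. Atf4, the factor that drives this response, stood at 103 CPM in LEP and 359 CPM in control members. Chac1, which degrades glutathione, stood at 1.70 CPM in LEP and 70.2 CPM in control members, and Trib3, a pseudokinase, at 0.91 and 39.4 CPM. All 21 measured genes of the list were below 0 and 15 were at least 2-fold lower, where 1.59% of 5987 genes were and 54.9% were above 0. Listed genes under 20 CPM in LEP, such as Chac1 and Trib3, met the minimum through the control and could only come out lower. Both counts are therefore partly fixed by the minimum. The median of the list was -1.38 in members and -1.28 in other cells, so the list was reduced in both. With members of at most 20000 UMIs 15 were again 2-fold lower, with a median of -1.39.

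The genes that were higher in LEP members included Notch and Id genes at ratios above those of other cells. Id3, a target of bone morphogenetic protein signals, stood at 340 CPM in BEP (327 to 353), 879 CPM in LEP (865 to 892) and 311 CPM in control members (291 to 332). LEP stood apart, and BEP and the control lay close together. The LEP over control ratio of Id3 was 1.50 in members and 0.69 in other cells. For Hes5 it was 1.24 and 0.72, for Id1 1.16 and 0.86, and for Tnc, the matrix protein tenascin C, 1.06 and 0.61. Marker number differed too, with 4 or 5 markers in 508 of 1355 LEP and 47 of 233 control members. At exactly 3 markers LEP and control cells held 310 and 157 CPM of Hes5, 818 and 308 of Id3, and 342 and 163 of Id1. Just outside, at 2 markers, they held 205 and 139, 704 and 414, and 316 and 156 CPM. The part of marker number was not tested. Of 10 measured genes of the list 9 were above 0 and 5 at least 2-fold higher, where 1.39% of 5987 genes were. Listed genes under 20 CPM in the control met the minimum through LEP and could only come out higher. Both counts are therefore partly fixed by the minimum. With members of at most 20000 UMIs, Id4 stood at 41.6 CPM in LEP and 12.1 CPM in the control, and Nrarp at 27.1 and 7.93 CPM. The median of the 10 was 0.89 in members and that of the 9 measured in other cells was 0.69. Hopx, a homeodomain gene of quiescent stem cells, stood at 8.50 CPM in BEP, 58.8 CPM in LEP and 9.68 CPM in control members, with a LEP over control ratio of 2.49 in members and 1.17 in other cells. No test of these differences between members and other cells was possible with 1 library per condition.

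Oxidative stress genes were higher in LEP members too. Hmox1, which breaks down heme, stood at 112 CPM in BEP, 354 CPM in LEP and 125 CPM in control members. Its LEP over control ratio was 1.50 in members and 1.51 in other cells. Srxn1, which repairs oxidized peroxiredoxins, stood at 40.3 CPM in BEP, 78.1 CPM in LEP and 18.3 CPM in control members. Mgst1, a membrane-bound glutathione transferase, stood at 146 CPM in LEP and 54.6 CPM in control members. Of 16 measured genes of the NRF2 and heme response 15 were above 0, against 54.9% of all genes, 3 were 2-fold higher and 1 was 2-fold lower, with a median of 0.58. The exception was Slc7a11, the cystine transporter, at 26.5 CPM in LEP and 60.5 CPM in control members. Srxn1 lay under the CPM minimum for lists in the control, met it through LEP and could only come out higher. The counts of genes above 0 and of genes 2-fold higher are therefore partly fixed by the minimum. Fos, an immediate early gene, stood at 24.98 CPM in BEP, 106 CPM in LEP and 36.7 CPM in control members. S100a6, a calcium-binding protein, stood at 186 CPM in LEP and 72.3 CPM in control members, with a ratio of 1.35 in members and 1.81 in other cells.

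**Figure D5:**
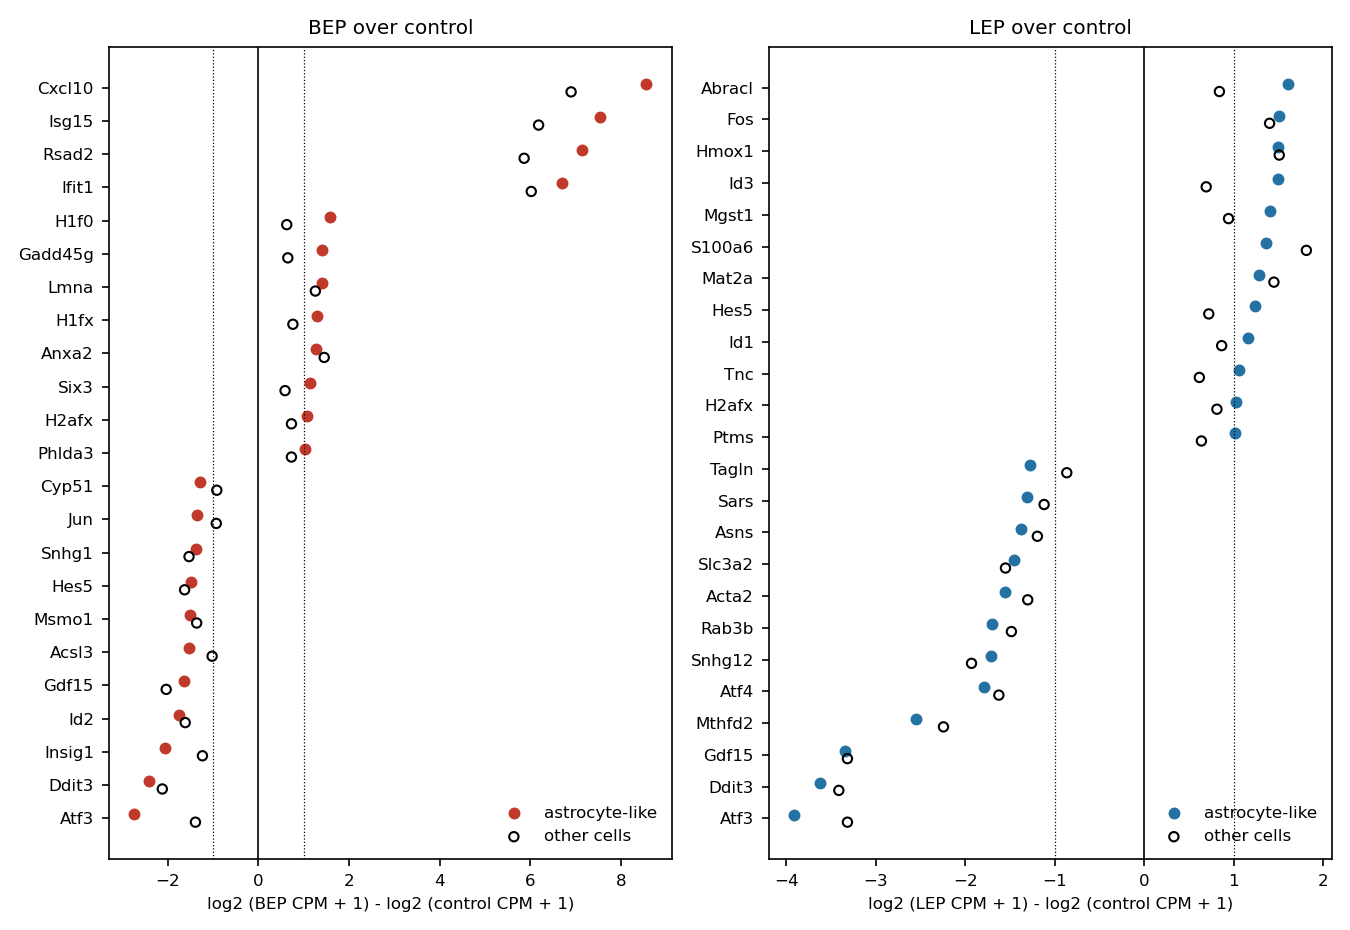
Each row is a gene; filled points give the log2 ratio (horizontal, pseudocount of 1 CPM) of BEP over control (left) or LEP over control (right) in astrocyte-like cells and open points the same ratio in other cells. The 4 interferon genes lie at 6.70 or more in BEP members, and Id3 and Hes5 lie further right in LEP members, at 1.50 and 1.24, than in other cells.

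Among astrocyte genes outside the rule, 9 of 21 were above 0 in LEP over control members, with a median of -0.08, so no common shift was seen. Id3 was the gene that was 2-fold higher and Slc4a4 the gene that was 2-fold lower, at 136 CPM in LEP and 297 CPM in control members. Cst3 had a ratio of 0.61 and Acsbg1, a fatty acid ligase, of -0.72. Acta2 and Tagln were lower, at 178 and 115 CPM in LEP and 524 and 280 CPM in control members, and in other cells their ratios were -1.30 and -0.87. Cryab, a small heat shock protein of glia, stood at 43.2 CPM in LEP and 98.6 CPM in control members. Of 20 cholesterol genes 14 were below 0, with a median of -0.22. Among all 5987 genes of at least 20 CPM 54.9% were above 0 in LEP over control members.

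BEP and LEP members differed by at least 2-fold in 41 of 1621 genes (2.53%), 22 higher (1.36%) and 19 lower (1.17%) in BEP. In other cells 17 of 1585 genes did (1.07%). This comparison shares its libraries with the comparisons above. Hes5 had the lowest ratio, at -2.73 in members and -2.35 in other cells, followed by Id2 at -2.37 and -1.57, Fos at -2.04 and -1.70, and Id1 at -1.94 and -1.73. All 20 cholesterol genes were below 0, with a median of -0.74, where 50.8% of 6054 genes were above 0. With members of at most 20000 UMIs 19 were below 0 and the median was -0.55. Acta2, at 593 CPM in BEP and 178 CPM in LEP members, had a ratio of 1.73 over all members and 2.14 with members of at most 20000 UMIs. Rab3b, a vesicle GTPase, had 1.80 and 1.88. Cdkn1a, the p53-induced inhibitor of the cell cycle, stood at 872 CPM in BEP, 385 CPM in LEP and 591 CPM in control members, and under the depth limit at 607 CPM in BEP, 358 CPM in LEP and 580 CPM in the control. Sparcl1 stood at 70.6 CPM in BEP, 159 CPM in LEP and 111 CPM in control members, and Ttyh1, a membrane protein of neural stem cells and glia, had a ratio of -1.06 over all members and -0.67 under the depth limit. The ratio of Sparcl1 was -1.16 and -0.97.

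Members with and without a UMI of Gfap, a gene of the rule, are described side by side. The 376 LEP members with a Gfap UMI held 10354 CPM of the 25 astrocyte genes outside the rule, against 7591 CPM in the 979 without. Cst3 stood at 3640 CPM in those with Gfap and 2312 CPM in those without, S100a6 at 284 and 151 CPM, and Hes5 at 480 and 329 CPM. In control members Hes5 stood at 154 CPM with Gfap and 156 CPM without. The thinned share of dividing cells was 23.7% with Gfap and 35.0% without in LEP, and 37.7% and 51.2% in BEP. It was 43.5% and 35.2% in the control, the other way, on 23 cells with Gfap. Median depth with and without Gfap was 10967.5 and 11880 UMIs in LEP, 13017 and 17144 in BEP, and 11706 and 10794 in the control. The part of depth in these shares was not tested. The 53 BEP members with Gfap held 7628 CPM of the 25 astrocyte genes, against 6267 CPM in BEP members without. The 23 control members with Gfap held 8118 CPM, against 7178 CPM. The summed astrocyte level also fell with depth. In members under 10000 UMIs it was 11436 CPM in BEP, 11543 CPM in LEP and 10330 CPM in the control, and in members over 20000 UMIs it was 5163 CPM in BEP, 6212 CPM in LEP and 4695 CPM in the control. LEP was highest and the control lowest in both bands. Between them, in members of 10000 to 20000 UMIs, it was 8437 CPM in BEP, 8032 CPM in LEP and 6867 CPM in the control. The part of depth in the differences between libraries was not tested beyond the limits given. Dividing cells made up 70.6% of BEP, 76.1% of LEP and 65.0% of control members over 20000 UMIs.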

How the data were processed

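The 3 libraries were made with the 10x NextGEM 3' v3 kit, per the labels' protocols. The authors deposited raw UMI counts of 32285 genes in all barcodes, and the files were written by Cell Ranger 4, per the file headers. Cell Ranger 6, Seurat 4.0.4, GRCm38 and mm10 are named in the submitters' processing notes; neither the gene annotation nor the counting of introns is stated in the sources used.

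Cells and members followed the rule in the opening, and 1 BEP cell for few genes and 6 BEP, 2 LEP and 2 control cells for mitochondrial UMIs were left out. Counts were summed over members and scaled to CPM. A gene was counted as different at 2-fold or more with 100 CPM in either library (lists: 20 CPM), without the 10 genes of the rule. Intervals are exact Poisson for sums, exact conditional binomial for ratios and Clopper-Pearson for shares, at 95%. Thinning drew 3000 UMIs per cell without replacement. The text names, for each comparison of libraries, the 12 genes of highest and the 12 of lowest ratio, up to 4 per list with the largest ratios, and for members over other cells the 15 highest and 8 lowest over all 3 libraries, without predicted, Riken, ribosomal protein and mitochondrially encoded genes. The genes of the rule are named as such, and Slc1a3, Fjx1, S100b, Gjb6, Sox2 and Pdgfrb were chosen after their values were seen. The members and the 26 gene lists were chosen with earlier results of these data known. Mx1 and Mx2 of the interferon list were not found under these names. Histone and glutathione transferase genes have close paralogs between which counting could split reads. Gene coordinates were matched by identifier in GENCODE vM21 (GRCm38); promoters are from RefSeq on GRCm38.p6. Python 3.11.15 with numpy 2.4.6, scipy 1.17.1, pandas 2.3.3 and matplotlib 3.10.9 was used, and the fold calculation was tested on simulated data. No test between conditions was possible, and alternatives are described in the closing section. Some genes that the naming rule picked are not reported here.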

Additional observations from a re-analysis of the deposited data

Results flagged for a closer look

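Cells that met the astrocyte markers but also held 2 or more precursor markers were not members and were counted with the other cells above. They made up 0.940% of BEP cells (52 cells) and 1.64% of LEP cells (103 cells), both above the 0.131% of the control (8 cells). Their median depth was 39199 UMIs in BEP, 21396 in LEP and 26400.5 in the control, against 16512 in BEP, 11596 in LEP and 10863 in the control among astrocyte-like cells. After thinning to 3000 UMIs 0 such cells were left in BEP, 1 in LEP and 0 in the control. The part of depth and of doublets in these shares was not tested.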

How the results depend on the processing

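No paired analysis was possible because each condition was 1 library. The number of genes at least 2-fold different depended on the CPM minimum. BEP over control gave 29, and 57, 11 and 645 with minimums of 50 CPM, 200 CPM and none; LEP over control gave 33, and 81, 18 and 792; BEP over LEP gave 41, and 69, 15 and 456. With no minimum 71.3% of the BEP over control genes and 70.3% of the LEP over control genes were higher, against 41.4% and 39.4%, since genes of a few UMIs then enter. With members called on thinned UMIs BEP over control gave 60 and LEP over control 70. LEP over control gave 50 with 4 of 5 markers and 54 without dividing cells, here those with UMIs of 3 or more mitosis genes before thinning (111 BEP, 695 LEP and 111 control members were left). BEP over LEP gave 27 with at most 20000 UMIs. With 6000 to 20000 UMIs, chosen after seeing the data, BEP over control gave 19 (2 higher, 17 lower) and BEP over LEP 27. Gdf15 in BEP over LEP was 1.69, fell to 0.27 with members of at most 20000 UMIs and turned to -0.11 without dividing cells. The cause was not tested. The share of members in BEP, LEP and the control was 1.84%, 8.07% and 0.772% with 4 of 5 markers, 0.904%, 6.13% and 0.607% on thinned UMIs, 7.11%, 22.6% and 4.55% of cells of at least 6000 UMIs, and 4.92%, 16.9% and 3.17% with no precursor marker; with at most 20000 UMIs BEP had 4.44%. LEP was highest and the control lowest in each. Against other cells, 5 genes were 2-fold higher in all 3 libraries, 14 with thinned sums, 22 with 4 of 5 markers and 11 with 6000 to 20000 UMIs. Genes 2-fold different numbered 10 in BEP, 14 in LEP and 28 in the control, then 31, 31 and 53 with thinned sums and 32, 47 and 62 with 4 of 5 markers, and 40 in BEP with 6000 to 20000 UMIs. Of 1438 alternative values of single genes that were 2-fold in the values reported, 1437 had the same direction and 1263 were still 2-fold. Most of these genes were named for large ratios in the same cells, and some settings barely change the sums. Agreement in direction was therefore likely beforehand and supports nothing by itself. With median-of-ratios scaling the all-gene median shifted by -0.03 in BEP over control, -0.02 in LEP over control and -0.01 in BEP over LEP. With 1 library per condition, differences between cultures, devices and days cannot be told apart from those between conditions.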
